A study of Homo sapiens with 8 samples.

Results

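DNA methylation and demethylation genes were followed as a set of 10 among 78932 genes in the deposited tables. They were chosen by name: the DNA methyltransferases DNMT1, DNMT3A and DNMT3B, the UHRF factors UHRF1 and UHRF2, the remodeller HELLS, the TET enzymes TET1, TET2 and TET3, and the glycosylase MBD4. Each matched 1 Ensembl identifier, and all 10 had enough counts to be tested. The cells were HCT116, a human colorectal cancer line, with the tag of the dTAG degradation system on NUDT21, the RNA-binding small subunit of cleavage factor Im. In 4 libraries the cells had received DMSO, the solvent, together with JTE-607, and in 4 libraries dTAGV1, a degrader of tagged proteins, together with JTE-607. JTE-607 inhibits the nuclease CPSF73, which cuts pre-mRNA at poly(A) sites, and both groups carried the tag and had received it. The comparison was therefore of dTAGV1 with its solvent in cells that had all received JTE-607. Cleavage was not measured, and cells without JTE-607 were not analysed here. Doses, times and the number of cell clones are not given in the labels, nor whether replicates were separate cultures, so p-values measure the spread between these libraries, which may be technical.

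DNA methylation in mammals is placed on cytosines of CpG sites by DNMT3A and DNMT3B and copied to the new strand after replication by DNMT1. UHRF1 recognises CpG sites that carry the mark on the old strand alone and brings DNMT1 to them, and HELLS opens nucleosomal DNA for this step. TET enzymes oxidise methylcytosine, after which the mark is lost through base excision or through replication, and MBD4 removes the T that arises when methylcytosine is deaminated. In HCT116 cells, DNMT1 and DNMT3B are known to share in keeping CpG methylation. Methylation itself was not measured here, only RNA.

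Libraries held 8649238 to 9977205 reads, of which 3447842 to 4291256 were assigned to a gene in sense orientation. Unmapped reads were 27.7% to 28.9% with DMSO and 20.4% to 30.3% with dTAGV1. Of uniquely mapped reads, 30.1% to 33.7% were assigned to no feature with DMSO and 35.9% to 37.4% with dTAGV1, so every dTAGV1 library was above every DMSO library, and the part of this in the results below was not tested. NUDT21, the tagged gene, had 28.4 to 34.95 CPM (counts per 1000000, scaled by TMM) with DMSO and 4.42 to 10.2 with dTAGV1, or -1.95 ± 0.18 (SE) as log2 fold change. Since dTAGV1 targets the protein, which these libraries do not show, this RNA level is no check of the degradation. Of the epithelial markers, EPCAM, KRT8, KRT18, KRT19, CDH1 and CLDN4 were detected in all libraries, while CLDN7 and VIL1 were too low to be tested. Of 10 markers of other cell types, 9 had at most 2 counts in any library, DCN, ALB and INS had 0 throughout, and COL1A1 had group means of 17.3 CPM with DMSO and 13.8 CPM with dTAGV1. This list summed to 16.2 to 21.3 CPM with DMSO and 11.2 to 15.6 CPM with dTAGV1.

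The promoters of DNMT1, UHRF1 and HELLS are shown because these 3 genes fell together and because their windows hold letters that E2F factors, regulators of S-phase genes, are known to bind. Sequences are from RefSeq on GRCh38.p14, where all 10 genes matched and had 21 windows of 300 bases in all, each from 250 bases before to 50 after a transcript start. Capitals mark TTTCCCGC, TTTCGCGC, TTTGCCGC or TTTGGCGC on either strand, none of which overlap. The windows are chr19:10194904-10195203 (minus strand) for DNMT1, chr19:4909251-4909550 (plus strand) for UHRF1 and chr10:94545538-94545837 (plus strand) for HELLS, all written 5′ to 3′.
DNMT1: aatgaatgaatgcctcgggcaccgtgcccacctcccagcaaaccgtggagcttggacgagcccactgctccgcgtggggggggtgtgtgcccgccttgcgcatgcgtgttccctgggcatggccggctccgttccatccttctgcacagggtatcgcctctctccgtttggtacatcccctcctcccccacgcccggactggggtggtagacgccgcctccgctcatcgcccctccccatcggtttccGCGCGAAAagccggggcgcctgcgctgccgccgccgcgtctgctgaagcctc
UHRF1: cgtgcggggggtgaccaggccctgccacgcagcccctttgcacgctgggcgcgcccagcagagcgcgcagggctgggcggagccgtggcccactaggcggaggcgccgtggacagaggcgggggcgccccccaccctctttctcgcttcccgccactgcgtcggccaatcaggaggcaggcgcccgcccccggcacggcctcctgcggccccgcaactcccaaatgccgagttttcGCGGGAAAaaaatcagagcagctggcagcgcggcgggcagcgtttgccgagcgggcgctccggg
HELLS: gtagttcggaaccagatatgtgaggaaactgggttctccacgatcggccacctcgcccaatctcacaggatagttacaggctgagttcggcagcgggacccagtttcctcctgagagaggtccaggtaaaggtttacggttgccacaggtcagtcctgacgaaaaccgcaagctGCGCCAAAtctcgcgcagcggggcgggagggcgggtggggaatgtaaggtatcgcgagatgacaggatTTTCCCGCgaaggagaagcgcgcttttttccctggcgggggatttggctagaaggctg
The first capital lies 2 bases before the start in DNMT1 and 14 bases before it in UHRF1, and HELLS has 2 matches, at 76 and 8 bases before it. A further UHRF1 window, chr19:4909894-4910193, has a match 160 bases before its start. The third UHRF1 window and the 16 windows of the other 7 genes did not hold these letters. Those 7 genes include DNMT3B, TET3 and UHRF2, which also fell. Among all genes of the RefSeq promoters, 3.99% had a match in at least 1 window, and 3.31% of windows had one. These shares are over all genes, expressed or not. They are not matched for CpG content, although each spelling holds a CpG. The spellings were chosen with the expression results known, a match is not evidence of binding, and these letters say nothing about other windows. CpG sites numbered 30 in the DNMT1 window, 36 in that of UHRF1 and 22 in that of HELLS, and 3 in the single DNMT3B window, against a median of 14 over all windows. The transcript starts of these 4 genes' windows lie inside the GENCODE 29 gene spans given below, not at their 5′ ends, so the windows need not be the promoters these cells use.

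With dTAGV1, UHRF1, HELLS, DNMT3B, DNMT1, TET3 and UHRF2 fell, TET2, TET1 and MBD4 rose, and DNMT3A did not pass the test. Thus 9 of 10 genes were called, against 57.9% of all 12618 tested genes (quasi-likelihood F test of edgeR, threshold 0.05 after Benjamini-Hochberg adjustment over all of them). In the lower direction 6 of 10 were called, against 28.5% of tested genes, and in the higher direction 3 of 10, against 29.4%, so that the share of higher calls lies near that of all genes. The 10 genes were chosen with earlier results of these data known, and the difference in the lower direction was not tested. Across the 10, the log2 fold change was -0.58 at the median, against 0.01 for all tested genes. By point estimate, UHRF1, HELLS, DNMT3B and DNMT1 fell by more than 2-fold, as did 9.23% of tested genes. TET2 rose by more than 2-fold, as did 7.35%. DNMT1 was at -1.01 ± 0.08 and DNMT3B at -1.09 ± 0.18 (log2, SE), and no gene was tested against 2-fold. Levels of the groups did not overlap for 8 of the 10 genes, against 50.9% of tested genes. In bulk RNA, fewer cells of a kind and less RNA per cell cannot be told apart.

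**Figure D1:**
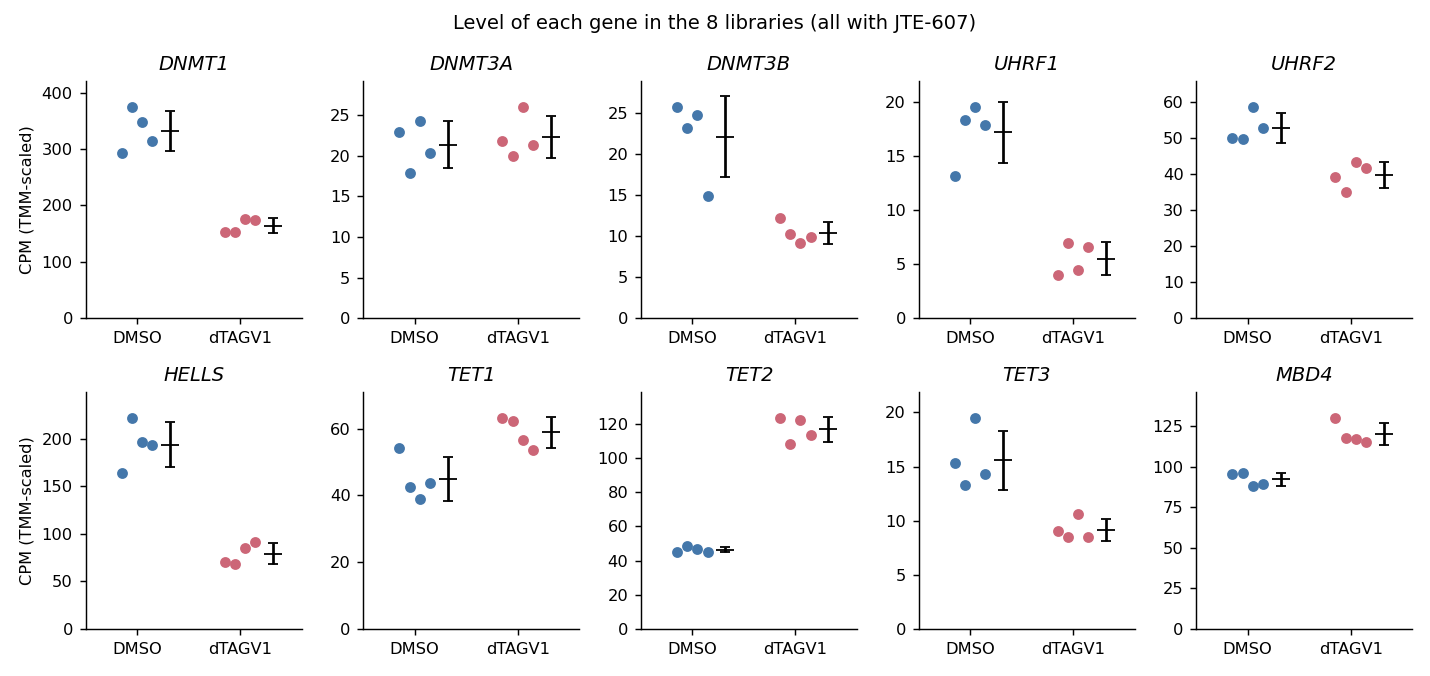
Level of each of the 10 genes in CPM (linear axes from 0) in the 4 DMSO and 4 dTAGV1 libraries; points are libraries and bars are the mean ± SD. The groups are separate for 8 genes and overlap for DNMT3A and TET1.

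**Figure D2:**
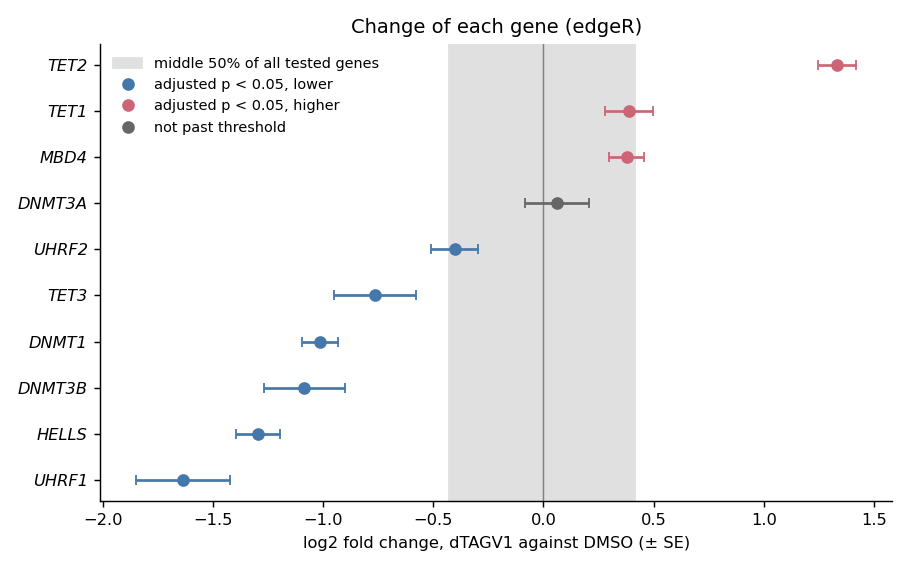
The log2 fold change (dTAGV1 against DMSO) of each gene with its standard error; the band holds the middle 50% of all 12618 tested genes, from -0.43 to 0.42. UHRF1, HELLS, DNMT3B, DNMT1 and TET3 lie below the band and TET2 lies above it.

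DNMT1, the maintenance methyltransferase (ENSG00000130816; GRCh38 chromosome 19, 10133345 to 10231286, minus strand, protein-coding in GENCODE 29), was at 293, 374, 348 and 314 CPM in DMSO replicates 1 to 4. With dTAGV1 it was at 153, 154, 176 and 175 CPM. Every dTAGV1 library lay well under every DMSO library. The group means were 332 ± 36.1 and 164 ± 12.9 CPM (± SD over 4 libraries a group), or -1.01 ± 0.08 as log2 fold change (SE; edgeR, Benjamini-Hochberg adjusted p = 1.4e-10). These values rest on 509 to 1551 counts per library. DNMT1 shares exon sequence with S1PR2 on the same strand in GENCODE 29, so reads in the shared part could be assigned to neither, and S1PR2 itself had 28 to 46 counts.

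UHRF1, which brings DNMT1 to newly replicated DNA (ENSG00000276043; chromosome 19, 4903080 to 4962154, plus strand, protein-coding), was at 13.1, 18.3, 19.5 and 17.8 CPM with DMSO and 3.97, 6.95, 4.42 and 6.62 CPM with dTAGV1. The highest dTAGV1 library stayed below the lowest DMSO library. The means of 17.2 ± 2.80 and 5.49 ± 1.51 CPM (± SD over 4 libraries a group) gave a log2 fold change of -1.63 ± 0.21 (SE; edgeR, Benjamini-Hochberg adjusted p = 4.1e-07). Of all tested genes, 2.82% had a more negative value. With 14 to 28 counts in the dTAGV1 libraries, the size of this fold change is less precise than that of DNMT1.

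UHRF2, the paralog of UHRF1 with a similar domain order (ENSG00000147854; chromosome 9, 6413151 to 6507054, plus strand, protein-coding), fell less. Its libraries were at 50.01, 49.7, 58.4 and 52.7 CPM with DMSO and 39.1, 35.04, 43.3 and 41.6 CPM with dTAGV1, without overlap. Means were 52.7 ± 4.05 and 39.8 ± 3.59 CPM (± SD over 4 libraries a group), with a log2 fold change of -0.40 ± 0.11 (SE; edgeR, Benjamini-Hochberg adjusted p = 0.0020). The unequal change of the paralogs was tested on the ratio of their counts within each library, which needs no scaling between libraries. The log2 ratio of UHRF1 to UHRF2 averaged -1.62 ± 0.21 in DMSO libraries and -2.86 ± 0.47 in dTAGV1 libraries (SD, n = 4 each), which differ by -1.24 (2-sided exact permutation test p = 0.0286, adjusted over 7 ratios 0.0333). With 4 libraries against 4, 0.0286 is the smallest p this test can give, and every dTAGV1 ratio was below every DMSO ratio.

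HELLS, an ATP-dependent remodeller needed for methylation of repeats (ENSG00000119969; chromosome 10, 94501434 to 94613905, plus strand, protein-coding), was at 164, 222, 197 and 193 CPM with DMSO. Its dTAGV1 libraries were at 70.6, 68.6, 84.8 and 91.5 CPM, all far under the DMSO libraries. Means fell from 194 ± 23.6 to 78.9 ± 11.1 CPM (± SD over 4 libraries a group), or -1.29 ± 0.10 as log2 fold change (SE; edgeR, Benjamini-Hochberg adjusted p = 2.3e-10). HELLS shares exon sequence with AL138759.1 on the same strand, which had 0 counts in all libraries.

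DNMT3B, a de novo methyltransferase (ENSG00000088305; chromosome 20, 32762385 to 32809356, plus strand, protein-coding), was at 25.7, 23.2, 24.8 and 14.8 CPM with DMSO and 12.2, 10.3, 9.13 and 9.93 CPM with dTAGV1. DMSO replicate 4 was the low library of its group and still lay above all 4 dTAGV1 libraries. The means of 22.1 ± 4.97 and 10.4 ± 1.30 CPM (± SD over 4 libraries a group) gave a log2 fold change of -1.09 ± 0.18 (SE; edgeR, Benjamini-Hochberg adjusted p = 1.7e-05). DNMT3A, the other de novo enzyme (ENSG00000119772; chromosome 2, 25227855 to 25342590, minus strand, protein-coding), was at 23.0, 17.8, 24.3 and 20.3 CPM with DMSO and 21.8, 19.9, 25.9 and 21.3 CPM with dTAGV1. The ranges of the groups overlapped. The DNMT3A means were 21.3 ± 2.86 and 22.2 ± 2.58 CPM (± SD over 4 libraries a group), and the log2 fold change of 0.06 ± 0.14 (SE) did not pass the test (edgeR, Benjamini-Hochberg adjusted p = 0.73). Its sign depended on the scaling, with -0.01 when libraries were scaled by their size alone.

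The ratio of DNMT3A to DNMT3B, as log2 of counts within a library, stood at -0.16, -0.37, -0.03 and 0.45 in the DMSO libraries, then at 0.83, 0.95, 1.49 and 1.09 in the dTAGV1 libraries. All dTAGV1 ratios were above all DMSO ratios, a difference of 1.120 (2-sided exact permutation test p = 0.0286, adjusted over 7 ratios 0.0333). The DNMT1 to DNMT3A ratio moved the other way, from 3.96 ± 0.31 to 2.88 ± 0.13 on the log2 scale (SD, n = 4 each), a difference of -1.07 (exact permutation p = 0.0286, adjusted 0.0333). For DNMT1 to DNMT3B it was 3.93 ± 0.37 and 3.97 ± 0.27 (SD, n = 4 each), and the difference of 0.05 with a standard error of 0.23 did not pass (exact permutation p = 0.857, adjusted 0.857). Because this test passes only where the groups do not overlap, a change in that ratio larger than this error could also be missed. As counts here come from transcript 3′ ends and were not divided by length, ratios were compared between groups and not read as relative amounts of the genes. Counts per gene do not show where in a gene its reads end. Whether 3′ ends moved between groups, which could alter these counts and ratios, was not tested.

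The TET genes moved in different directions. TET2, a dioxygenase without a DNA-binding CXXC domain of its own (ENSG00000168769; chromosome 4, 105145875 to 105279816, plus strand, protein-coding), was at 45.1, 48.2, 46.7 and 45.3 CPM with DMSO and 123, 108, 122 and 113 CPM with dTAGV1. The DMSO libraries lay within a narrow range, and every dTAGV1 library was more than 2-fold above them. Means rose from 46.3 ± 1.47 to 117 ± 7.28 CPM (± SD over 4 libraries a group), or 1.33 ± 0.09 as log2 fold change (SE; edgeR, Benjamini-Hochberg adjusted p = 3.6e-12). A larger log2 fold change was seen for 4.07% of tested genes.

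TET1, which carries a CXXC domain (ENSG00000138336; chromosome 10, 68560656 to 68694482, plus strand, protein-coding), was at 54.4, 42.7, 39.0 and 43.8 CPM with DMSO and 63.2, 62.2, 56.6 and 53.7 CPM with dTAGV1. DMSO replicate 1 was slightly above dTAGV1 replicate 4, so the groups overlapped. TET1 rose from 44.9 ± 6.62 to 58.9 ± 4.56 CPM (± SD over 4 libraries a group), or 0.39 ± 0.11 as log2 fold change (SE; edgeR, Benjamini-Hochberg adjusted p = 0.0036).

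TET3, the third dioxygenase (ENSG00000187605; chromosome 2, 73986404 to 74108176, plus strand, protein-coding), was at 15.3, 13.3, 19.5 and 14.3 CPM with DMSO and 9.07, 8.46, 10.6 and 8.51 CPM with dTAGV1. The groups did not overlap. It fell from 15.6 ± 2.72 to 9.16 ± 1.00 CPM (± SD over 4 libraries a group), or -0.76 ± 0.18 as log2 fold change (SE; edgeR, Benjamini-Hochberg adjusted p = 9.5e-04).

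The TET2 to TET3 log2 ratio was 1.55, 1.85, 1.26 and 1.65 with DMSO and 3.74, 3.65, 3.51 and 3.72 with dTAGV1, a difference of 2.08 and the largest of the 7 ratios. TET1 to TET2 changed by -0.93 and TET1 to TET3 by 1.15. For these 3 ratios the groups did not overlap (2-sided exact permutation test p = 0.0286, adjusted 0.0333, each). The 3 TET genes thus changed unequally, each against both others.

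**Figure D3:**
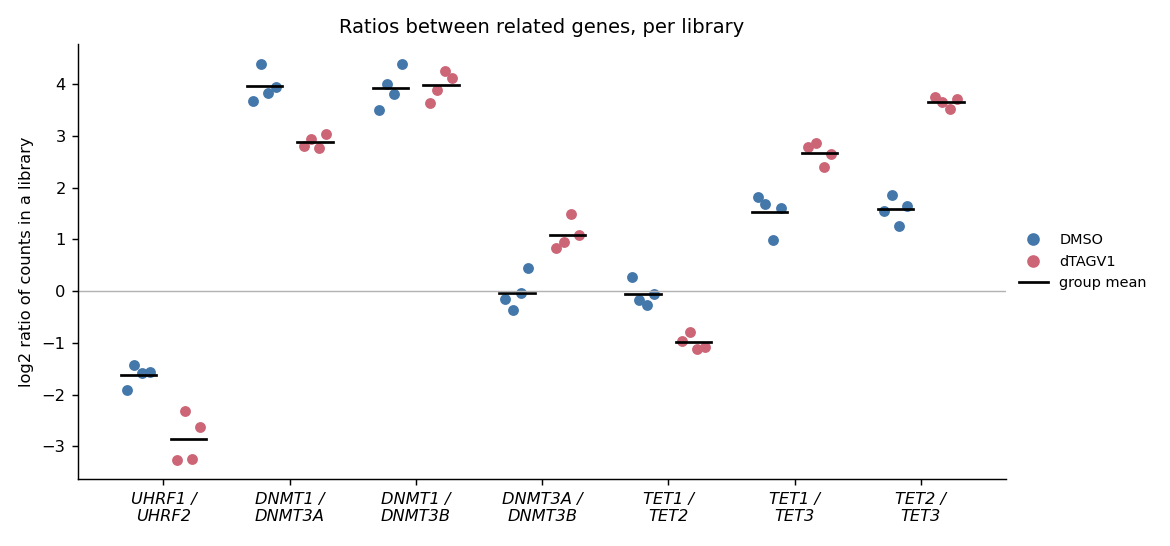
Log2 ratio of the counts of related genes within each library; points are libraries, bars are group means. DMSO and dTAGV1 libraries are separate for 6 of the 7 ratios and overlap for DNMT1 to DNMT3B.

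MBD4, a methyl-CpG-binding glycosylase (ENSG00000129071; chromosome 3, 129430944 to 129440179, minus strand, protein-coding), was at 95.6, 95.7, 88.0 and 89.3 CPM with DMSO and 130, 118, 117 and 115 CPM with dTAGV1. All dTAGV1 libraries were above all DMSO libraries. MBD4 rose from 92.2 ± 4.09 to 120 ± 6.75 CPM (± SD over 4 libraries a group), or 0.38 ± 0.08 as log2 fold change (SE; edgeR, Benjamini-Hochberg adjusted p = 2.5e-04). Its span of 9.24 kb was the shortest of the 10 genes, and the others spanned 47.0 to 134 kb.

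Other genes of the pathway are given from lists written by hand, with calls by the same test over all genes. Of 8 partners of maintenance methylation, 5 fell and 1 rose, against 28.5% and 29.4% of all tested genes, with a median log2 fold change of -0.57. CDCA7, which recruits HELLS to chromatin, fell from 37.0 ± 5.95 to 11.2 ± 1.70 CPM (± SD over 4 libraries a group), and its log2 fold change was -1.72 ± 0.16 (SE). LIG1, the ligase of lagging-strand DNA that UHRF1 also binds, had one of -1.72 ± 0.16, and CDCA7L, the paralog of CDCA7, -1.36 ± 0.11. HDAC1, a histone deacetylase found with DNMT1, rose by 0.39 ± 0.07. PCNA, the replication clamp to which DNMT1 binds, was at 160 ± 15.6 and 166 ± 23.7 CPM (± SD over 4 libraries a group), and its value of 0.05 ± 0.09 did not pass.

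Among genes listed with the de novo enzymes, not all of them direct partners, 3 of 7 tested genes rose and 3 fell. The shares over all tested genes were 29.4% and 28.5%, and the median log2 fold change of the list was 0.13. MORC2, a silencing factor, rose by 0.55 ± 0.11, NSD1 by 0.39 ± 0.07 and SETD2 by 0.32 ± 0.07 (log2, SE). NSD1 and SETD2 are histone methyltransferases whose marks are bound by DNMT3A and DNMT3B. EZH2, the methyltransferase of Polycomb repression, changed by -0.50 ± 0.09, ZBTB24, an activator of CDCA7, by -0.47 ± 0.16 and TRIM28, a corepressor, by -0.46 ± 0.10. DNMT3L, a cofactor of the de novo enzymes, had 0 counts in all 8 libraries, which allows up to 0.699 to 0.870 CPM per library (3 counts, counting error only).

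Of 7 tested genes listed as TET cofactors and partners, 6 fell and 1 rose, against 28.5% and 29.4% of all tested genes. Their median log2 fold change was -0.52. IDH2, which makes the cosubstrate alpha-ketoglutarate in mitochondria, fell from 37.5 ± 1.496 to 10.04 ± 0.90 CPM (± SD over 4 libraries a group), or -1.89 ± 0.14 as log2 fold change (SE). D2HGDH, which removes hydroxyglutarate, an inhibitor of TET enzymes, had a value of -1.75 ± 0.21. CXXC5, which binds unmethylated CpG sites, rose by 0.57 ± 0.08. Of 11 tested genes of base excision and repair, 3 rose and 4 fell, with a median of -0.17, and these shares lie near the 29.4% and 28.5% of all tested genes. TDG, the glycosylase that removes the oxidised bases TET enzymes make, rose by 0.28 ± 0.09, from 63.2 ± 3.17 to 77.0 ± 3.64 CPM (± SD over 4 libraries a group). GADD45A, a stress-induced protein, rose by 1.05 ± 0.08 and the repair polymerase POLB by 0.73 ± 0.09. The glycosylases NEIL3 and NEIL1 changed by -1.93 ± 0.27 and -0.36 ± 0.13, and GADD45B by -0.69 ± 0.16.

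Of 9 tested genes of the methyl donor cycle, 4 fell and 1 rose, against 28.5% and 29.4% of all tested genes, with a median log2 fold change of -0.21. MAT2A, which makes the methyl donor S-adenosylmethionine, fell from 36.5 ± 3.28 to 23.8 ± 5.05 CPM (± SD over 4 libraries a group), or -0.61 ± 0.14 as log2 fold change (SE). SHMT2, a serine hydroxymethyltransferase, had one of -0.87 ± 0.11 and MTR, methionine synthase, -0.76 ± 0.11. Of 6 tested readers of methyl-CpG, only MBD3, a subunit of the NuRD complex, passed, with a change of -1.41 ± 0.19, and 0 rose, against 28.5% of all tested genes lower and 29.4% higher. MBD1, MBD2, ZBTB33 and ZBTB38 had values from 0.02 to 0.19 that did not pass (edgeR, Benjamini-Hochberg adjusted).

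Genes that cells are known to silence by promoter methylation, or that serve as readouts of its loss, were mostly not expressed. Of 14, 12 were too low to be tested and 8 had 0 counts in all libraries: DAZL, MAGEA1, MAGEA3, MAGEA4, SFRP2, GATA4, GATA5 and TFPI2. The other untested genes had at most 19 counts in a library, the highest being SYCP3, a meiotic gene, with 2, 1, 5 and 7 counts with DMSO and 7, 5, 8 and 19 with dTAGV1. The 2 tested genes both fell (28.5% of all tested genes did), with log2 fold changes of -0.69 ± 0.09 for MAGEB2 and -1.69 ± 0.32 for TIMP3 (SE). For the 8 genes at 0, a level below 0.699 to 0.870 CPM per library could not be detected.

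S-phase genes moved with DNMT1, UHRF1, HELLS and DNMT3B. Of 36 listed S-phase genes, which exclude the 10 genes, 35 fell and 1 rose, against 28.5% and 29.4% of all tested genes, with a median log2 fold change of -1.28. Their summed level was 2152 to 2934 CPM in the DMSO libraries and 1034 to 1383 CPM in the dTAGV1 libraries. CCNE1, a cyclin of S-phase entry, and E2F1, a transcription factor of that step, had the most negative values, -1.999 ± 0.21 and -1.98 ± 0.22 (SE). The histone chaperone subunit CHAF1B rose by 1.75 ± 0.12, while its partner CHAF1A changed by -1.04 ± 0.12. PCNA, counted above with the maintenance partners, is not on this S-phase list, and its value of 0.05 ± 0.09 did not pass. All 10 genes of a proliferation list fell, again against 28.5% of all tested genes, with a median of -1.28, among them AURKB, CCNB1 and MKI67 with -1.86 ± 0.22, -1.61 ± 0.23 and -1.36 ± 0.22. These lists were written by hand with earlier results of these data known, so the shares need not hold for all S-phase or proliferation genes. The part of these lists in the levels of DNMT1, UHRF1, HELLS and DNMT3B was not tested. Of 6 tested epithelial markers, 3 fell and 1 rose, against 28.5% and 29.4% of all tested genes. KRT19, KRT18 and CLDN4 fell, with log2 fold changes of -0.65, -0.60 and -0.48, and EPCAM rose by 0.28. KRT8 and CDH1, at -0.38 and 0.02, did not pass.

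**Figure D4:**
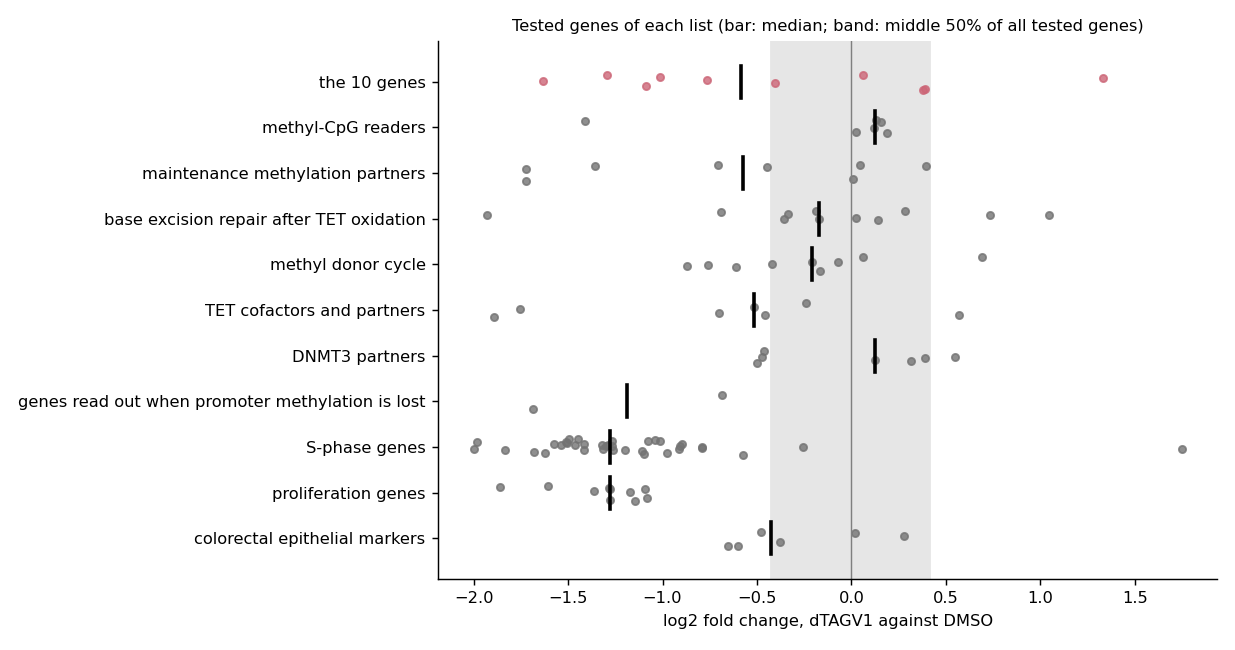
The log2 fold change (dTAGV1 against DMSO) of every tested gene of each list except the markers of other cell types, 1 point a gene; bars are list medians and the band is the middle 50% of all tested genes. The 10 genes spread from -1.63 to 1.33, while the S-phase and proliferation lists lie almost wholly below the band, CHAF1B at 1.75 being the exception on the higher side.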

How the data were processed

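RNA from 8 libraries of 1 cell line was profiled with a Lexogen QuantSeq forward kit for mRNA 3′ ends, per the labels' protocols. The authors deposited whole-number counts of reads per gene in 4-column tables in the layout of STAR. FastQC, fastp, STAR, HTSeq and DESeq2 and the build GRCh38 are named in the submitters' processing notes, without roles or versions. The annotation and the use of molecular identifiers are not given in the sources used here, so PCR copies may remain and counting limits cover counting error only. Counts on the gene's strand were used, which exceeded the opposite strand by 8.28 to 8.48 times. The first 4 lines, reads given to no gene, held 56.7% to 62.8% of reads. They are part of the read numbers given above, but were left out of the totals used for scaling and of all tests. Symbols came from a name table with 61481 of the identifiers, and coordinates from GENCODE 29, which held 57356.

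Groups follow the treatment given in sample titles. All genes passing filterByExpr were fitted with edgeR 4.0.16 in R 4.3.3 (TMM, robust quasi-likelihood, no covariate), with Benjamini-Hochberg adjustment over 12618 genes and a threshold of 0.05. CPM is per 1000000 counts of the tested genes after TMM scaling, and a standard error is the log2 fold change divided by the square root of F. Within-library ratios used 0.5 added to each count and 2-sided exact permutation tests (scipy 1.17.1), adjusted over 7 ratios. No length correction was applied. The gene test was run on simulated counts. In these, 67, 67 and 66 of 12618 genes changed by 0.5, 1 and 2 in log2, in either direction. The test recovered 50.7%, 76.1% and 97% of them, with 10 false calls. As 57.9% of tested genes were called in the real data, the simulation does not check the scaling under so many changes. Libraries of a group differed by more than sampling noise (chi-square per degree of freedom 1.82 to 5.09), and none was merged.

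All 10 genes are named, with up to 3 calls in each direction from 11 lists, and TDG, CDCA7, PCNA and MAT2A whatever their values. A few list genes that this rule would name are counted but not reported here. CHAF1A, SYCP3 and the untested genes were picked with their values in view. The 10 genes, lists and ratios were chosen with earlier results of these data known. Alternatives were RLE or library-size scaling, no filter, a mean of at least 100 counts, DESeq2 1.42.0, limma-voom (limma 3.58.1), counts irrespective of strand, a replicate block, non-robust dispersions, other pseudocounts, and leaving out each library.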

Additional observations from a re-analysis of the deposited data

Results flagged for a closer look

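In 3 of 112 groups of 4 libraries examined, 1 library stood apart from the other 3 by the gap rule of Dixon at the 95% level, which chance alone gives in about 1 group in 20. MBD4 was at 129.8 CPM in dTAGV1 replicate 1, against 115 to 118 CPM in the other 3 dTAGV1 libraries. Without that library its log2 fold change was 0.33 (edgeR, Benjamini-Hochberg adjusted p = 0.0014), against 0.38 with it. CDCA7L was at 20.7 CPM in dTAGV1 replicate 1, against 28.1 to 29.3 CPM in the others. NSD1 was at 214.8 CPM in dTAGV1 replicate 3, against 200.3 to 201.0 CPM in the others. Each of these libraries lay on the same side of all DMSO libraries as the rest of its group.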

How the results depend on the processing

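The 9 calls among the 10 genes held in each of the 17 or 18 fits in which the gene was tested, and DNMT3A passed in none. Log2 fold changes ranged from -1.09 to -0.96 for DNMT1, -1.77 to -1.52 for UHRF1, -0.48 to -0.36 for UHRF2, -1.39 to -1.23 for HELLS, -1.24 to -1.01 for DNMT3B, -0.03 to 0.12 for DNMT3A, 0.31 to 0.49 for TET1, 1.26 to 1.35 for TET2, -0.85 to -0.65 for TET3 and 0.30 to 0.39 for MBD4. Their highest adjusted p among called genes was 0.0242, for TET1. Under a minimum mean of 100 counts, 4120 genes were called (31.2% of tested genes lower) and 3 of the 10 genes were called lower, because DNMT3A, DNMT3B, UHRF1 and TET3 were no longer tested. Leaving out each library in turn called 6861 to 7232 genes, with 6 of the 10 lower and 3 higher each time (26.4% to 28.6% of tested genes lower, 26.2% to 28.5% higher). Without a filter, 8073 of 29925 tested genes were called, 27.0%, with 13.8% lower and 13.2% higher, and library-size scaling called 32.4% lower and 25.2% higher.

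The 6 ratios that passed also did so at pseudocounts of 0 and 1 and with counts irrespective of strand, and DNMT1 to DNMT3B did not pass there. Without 1 library the exact permutation test cannot go below 0.0571, so no ratio could pass, with differences of -1.42 to -1.11 (UHRF1 to UHRF2), -1.17 to -0.93 (DNMT1 to DNMT3A), -0.10 to 0.20 (DNMT1 to DNMT3B), 0.99 to 1.28 (DNMT3A to DNMT3B), -1.001 to -0.82 (TET1 to TET2), 0.97 to 1.24 (TET1 to TET3) and 1.97 to 2.17 (TET2 to TET3). With the replicate number as a block, the sign-flip test of 4 differences cannot go below 0.125. The paired differences, -1.24, -1.07, 1.120, -0.93, 1.15 and 2.08 for the 6 ratios that had passed, were the same values. Under the replicate block edgeR called 7434 genes (58.9% of tested genes) and the same 9 of the 10. Labels give no origin for the numbers, deviations of same-numbered libraries correlated at 0.133, -0.0127, 0.0208 and 0.0330, and not every library correlated best with its own number. UHRF1, DNMT3B and TET3, with 14 to 96 counts a library, have the widest errors.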

Other observations

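Genes that overlap the 10 were also counted. TBC1D12, which overlaps HELLS on the same strand in GENCODE 29 without shared exons, had 116 to 273 counts and rose by 0.93 ± 0.10 on the log2 scale (SE; edgeR, Benjamini-Hochberg adjusted p = 1.9e-08), opposite to HELLS. IFT122, a ciliary transport gene whose exons overlap those of MBD4 on the other strand, rose by 0.39 ± 0.16 (edgeR, Benjamini-Hochberg adjusted p = 0.0401). TET2-AS1, antisense to TET2, had at most 2 counts in a library. Opposite-strand counts of the 10 genes were 0 to 3 in every library.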
